A study of Mus musculus with 9 samples.

Results

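The cells described here were selected to hold kidney monocytes and dendritic cells with no more than a trace of complement C1q. Their genes fitted that name for 68.2% of them at the clustering resolution used. They were selected on measured values: 654 of 196925 kept cells, or 0.332%, met the rule. A cell was kept with at least 1000 UMIs (unique molecular identifiers, each counting 1 captured RNA molecule), at least 500 genes and at most 15% of UMIs from mitochondrially encoded genes. It was then taken if it held at least 5 UMIs summed over Tyrobp, Fcer1g, Lyz2, Plac8, Ccr2 and Cd209a, at most 1 UMI over C1qa, C1qb and C1qc, 0 UMIs over the lymphoid genes Cd3e, Cd3g, Cd79a and Nkg7, and at most 1 UMI over Kdr, Umod, Slc12a1 and Slc12a3, which mark endothelium and distal tubule. The marker step left 2219 cells, the C1q step 919, the lymphoid step 781 and the last step 654.

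Droplet single-cell RNA sequencing was performed on a longitudinal piece of kidney from each of 9 male C57BL/6 mice, 6 weeks old at the start and adapted for 1 week, in 3 groups of 3. Control mice received saline by intraperitoneal injection. AKI-CKD mice, a model of the passage from acute kidney injury to chronic kidney disease, received cisplatin (a DNA-crosslinking chemotherapy that injures renal tubules) at 8 mg/kg intraperitoneally each week for 4 weeks. AKI-CKD + EGT mice received the same cisplatin and ergothioneine (EGT), a dietary thiol antioxidant, in drinking water at 0.5 mg/mL, about 100 mg/kg/day, starting 3 days before cisplatin. All mice were euthanised after 8 weeks, so the cells come from a single late time point, and no group received EGT without cisplatin.

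Monocytes are made in bone marrow and circulate in blood. In the mouse they fall into Ly6c-high cells, which express Ccr2, follow Ccl2 into injured tissue and can become macrophages or dendritic cells, and Ly6c-low cells, which patrol the vessel wall. Dendritic cells take up antigen and present it on MHC molecules: cDC1 cells carry Xcr1 and Clec9a and cross-present to CD8 T cells, cDC2 cells carry Cd209a, Clec10a and Mgl2 and present to CD4 T cells, and plasmacytoid dendritic cells make type I interferon. Resident kidney macrophages differ from all of these by abundant C1q, and mononuclear phagocytes of both kinds lie between the tubules.

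The 9 libraries held 18207 to 28997 barcodes and 70106161 to 101525691 UMIs. Control 1, 2 and 3 gave 85, 69 and 48 of the selected cells, AKI-CKD 1, 2 and 3 gave 53, 125 and 68, and AKI-CKD + EGT 1, 2 and 3 gave 44, 128 and 34. The number was therefore uneven within groups, with AKI-CKD 2 and AKI-CKD + EGT 2 together supplying the most. The selected cells had a median of 3292 UMIs each, and their summed counts ran from 146412 UMIs in AKI-CKD + EGT 3 to 591834 in AKI-CKD 2, so AKI-CKD + EGT 3 is the least precise library here. The median mitochondrial share of all kept cells differed between mice of 1 group: 6.86, 4.19 and 1.23% in Control, 2.82, 2.31 and 1.67% in AKI-CKD, and 3.35, 4.87 and 7.64% in AKI-CKD + EGT. Cell names in the files are running numbers, so barcodes shared between libraries could not be counted.

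The genes of the rule describe the cells and are not findings. Tyrobp, an adaptor of activating myeloid receptors, had a UMI in 93.9% of the selected cells, Fcer1g in 82.3%, Lyz2 (lysozyme) in 64.8%, Plac8 in 52.4%, Ccr2 in 26.1% and Cd209a in 22.6%. At the marker limit, 50 cells had exactly 5 marker UMIs and 108 cells that met every other condition had 4; a UMI of any of 8 pan-leukocyte genes was seen in 46% of the former and 43.5% of the latter. At the C1q limit, 47 cells had 1 C1q UMI and 31 had 2, with such a UMI in 70.2% and 67.7%. Across all selected cells 91.7% had a pan-leukocyte UMI, against 2.74% of 118052 tubule reference cells (kept cells with at least 10 UMIs of the proximal tubule genes Lrp2 and Slc34a1), which show how much leukocyte RNA a cell that should lack it carries. The median depth of those reference cells was 3923 UMIs.

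Tubule RNA was present in the selected cells too, and whether it was free RNA or came from joined cells was not tested. Kap, the kidney androgen-regulated protein of proximal tubule, had a UMI in 100% of them, as in the tubule reference cells. The 12 proximal tubule genes of a fixed list made up 3.78 to 7.77% of the summed UMIs of a mouse.

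Outside the rule genes, the genes most concentrated in these cells over all other kept cells were myeloid. Levels are given as CPM, the UMIs of a gene for each 1000000 UMIs summed. Ifitm6, an interferon-inducible membrane gene of monocytes, stood at 138 CPM against 0.0991 CPM in the other kept cells, and Hp (haptoglobin) at 144 against 0.143. Ms4a6c, a surface protein of monocytes, had a UMI in 50.9% of the selected cells and 0.117% of tubule reference cells, and Alox5ap, needed for leukotriene synthesis, in 65.1% and 0.224%. Ccl6 and Ccl9, chemokines of myeloid cells, had a UMI in 53.5% and 32.4%. The remaining leaders were S100a8, S100a9, Gm56663, Pglyrp1, Ms4a4c, Nfam1, H2-Oa, Cd44 and Lsp1. As the cells were chosen by correlated genes, these ratios are a description.

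Clustering of the 654 cells gave 8 clusters, and the label held for 446 cells, or 68.2%. A cluster was called "-like" where at least 3 genes of a marker list were at least 2-fold above the other selected cells. Monocyte-like clusters held 210 cells and dendritic cell-like clusters 236. The other 208 cells were neutrophil-like (44 cells) or in clusters led by tubule genes (126) or endothelial genes (38). The names are rebuilt here from markers and are not the study's annotation.

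The Ly6c-high monocyte-like cluster (115 cells) was led by Cd177, F13a1 (coagulation factor XIII A), Fn1 (fibronectin), Thbs1 and Chil3. The Ly6c-low monocyte-like cluster (95 cells) was led by Cd300e, Eno3, Adgre4, Treml4, Ear2 and Ace. Treml4 stood at 259 CPM there against 13 CPM in the Ly6c-high cluster, and Ly6c2 at 14.6 against 989. All 10 fixed markers passed the 2-fold limit in each of these clusters.

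The cDC2-like cluster was the biggest, with 175 cells or 26.8%, and led, the rule gene Cd209a aside, by Mgl2, Cd72, H2-DMb2 and Clec10a. It also held 8 markers of migratory dendritic cells, as many as of cDC2, and Ccr7, the lymph node homing receptor, had a UMI in 8% of its cells. The cDC1-like cluster (46 cells) was led by Gcsam, Cyp8b1, Xcr1 and Clec9a, and Irf8, the transcription factor that cDC1 cells depend on, had a UMI in 93.5% of it. The plasmacytoid dendritic cell-like cluster held 15 cells and carried Siglech in 93.3% and Ly6d in 100%. MHC class II was shared: H2-Aa had a UMI in 98.9% of cDC2-like and 100% of cDC1-like cells, 53% of Ly6c-high and 33.7% of Ly6c-low monocyte-like cells, and 3.65% of tubule reference cells.

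The remaining clusters sat outside the label. The neutrophil-like cluster was led by Wfdc21, Retnlg, Mmp9, S100a9, S100a8 and the chemokine receptor Cxcr2, and the neutrophil gene Camp had 0 UMIs in all selected cells. The tubule-led cluster had a median of 8 marker UMIs, 12% of its UMIs from the proximal tubule list and a pan-leukocyte UMI in 75.4% of cells. Tyrobp had a UMI in 96.8% of its cells and Fcer1g in 69.8%, against 1.34% and 0.957% of tubule reference cells. Its C1q genes summed to 60.8 CPM, against 0 to 9.29 CPM in the other clusters. The endothelial-led cluster entered through Plac8, present in 100% of its cells, with Tyrobp in 5.26% and a pan-leukocyte UMI in 50%. Its leading genes were Tm4sf1, Fbln5, Ssu2 and Gja4, and Emcn (endomucin) was seen in 97.4%.

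**Figure D1:**
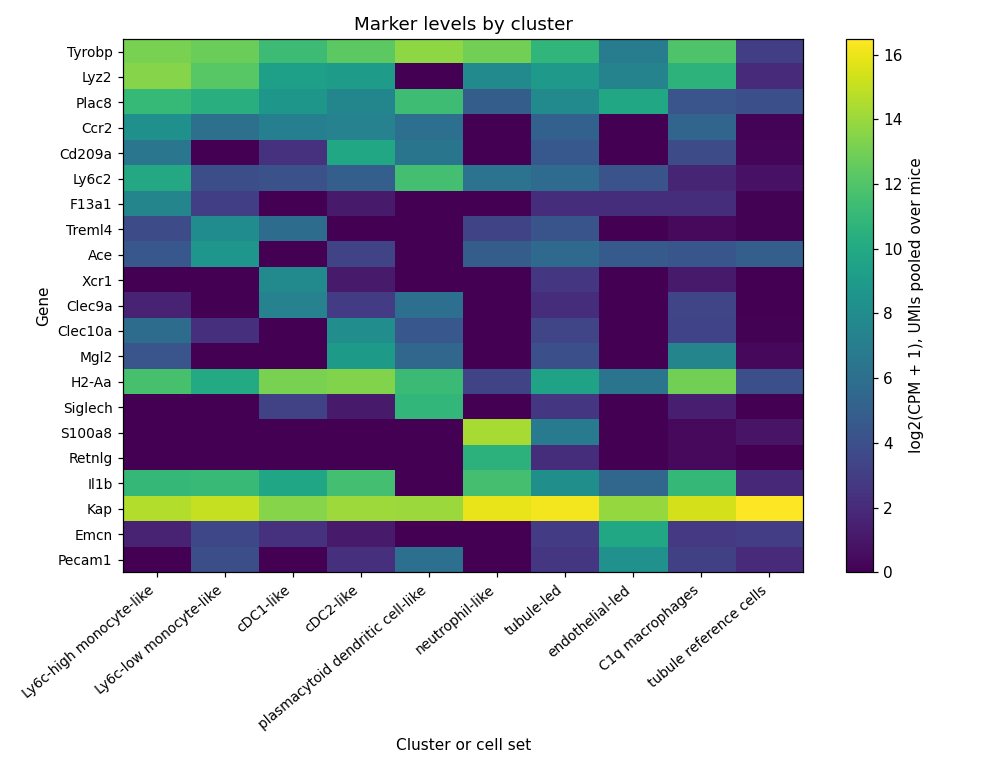
Levels of 21 marker genes (rows) in the 8 clusters of selected cells, in C1q macrophages and in tubule reference cells (columns), as log2(CPM + 1) of UMIs pooled over the 9 mice, on a colour scale from 0. S100a8 and Retnlg stand high in the neutrophil-like column, Emcn and Pecam1 in the endothelial-led column, and Kap is present in every column.

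**Figure D2:**
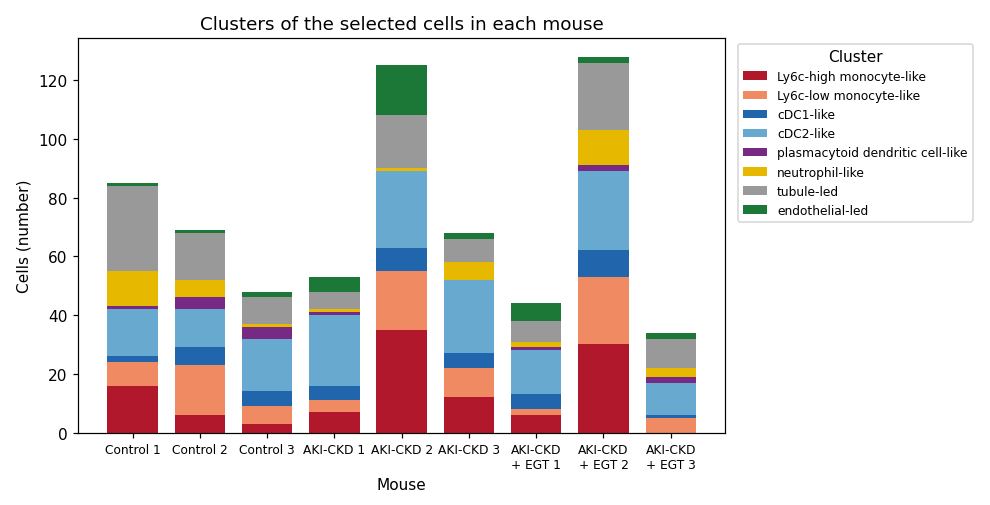
Number of selected cells (y axis) of each cluster (colours) in each of the 9 mice (x axis). AKI-CKD 2 and AKI-CKD + EGT 2 have the tallest bars, with 125 and 128 cells, and AKI-CKD + EGT 3 has the lowest, with 34 cells and 0 Ly6c-high monocyte-like cells.

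The first comparison asked whether these cells took a different share of the kidney after cisplatin and with EGT. Their share of all kept cells was 0.370, 0.251 and 0.196% in Control 1 to 3, 0.229, 0.648 and 0.292% in AKI-CKD, and 0.256, 0.588 and 0.197% in AKI-CKD + EGT. Group means were 0.272 ± 0.0890% (SD, n = 3), 0.390 ± 0.226% and 0.347 ± 0.211% in that order, and the ranges overlapped. Neither the cisplatin difference (p = 0.6) nor the EGT difference (p = 0.6) passed an exact 2-sided permutation test over mice. With 3 mice against 3 this test cannot go below 0.1. Without AKI-CKD 2 the first difference turned from 0.117 to -0.0118 percentage points and the second from -0.0424 to 0.0867.

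As a share of the cells meeting either the present rule or that for C1q macrophages, the AKI-CKD mice stood apart from the others. C1q macrophages were kept cells with the same marker minimum and exclusions but at least 5 C1q UMIs; there were 1003, and 97 cells with 2 to 4 C1q UMIs fell in neither set. The C1q-poor share was 32.7, 34.8 and 24.6% in Control, 56.4, 51.9 and 51.9% in AKI-CKD, and 26.2, 46.9 and 35.1% in AKI-CKD + EGT. All 3 AKI-CKD mice lay above all 6 others. The 95% exact binomial intervals, which cover counting error only, ran from 45.8 to 66.6% in AKI-CKD 1 and from 40.8 to 53% in AKI-CKD + EGT 2.

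The group means of that share were 30.7 ± 5.39% (SD, n = 3), 53.4 ± 2.60% and 36.0 ± 10.4%. AKI-CKD exceeded Control by 22.7 percentage points and AKI-CKD + EGT lay 17.3 points below AKI-CKD (a difference of -17.3). Both gave p = 0.1 in the exact permutation test, the smallest value possible here, and 0.5 after Benjamini-Hochberg adjustment over 20 share comparisons, so neither passed. Without any 1 mouse the first difference stayed between 19.6 and 24.7 points and the second between -22.8 and -12.4. Counting only the monocyte-like and dendritic cell-like clusters, an alternative added after the data were seen, the differences were 24.3 and -19.3 points. The groups did not overlap in any of these settings.

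Both the numerator and the denominator of this share varied. C1q macrophages were 0.761, 0.470 and 0.599% of kept cells in Control, 0.177, 0.601 and 0.270% in AKI-CKD, and 0.721, 0.667 and 0.365% in AKI-CKD + EGT, with overlap. Dendritic cell-like cells were 0.0827, 0.0837 and 0.110% of kept cells in Control, 0.130, 0.176 and 0.129% in AKI-CKD, and 0.122, 0.175 and 0.0811% in AKI-CKD + EGT. In that measure, looked at after its values were known and not tested, the 3 AKI-CKD mice lay above the 3 Control mice. It rests on the clusters at resolution 0.6. Monocyte-like cells overlapped, with group means of 0.0749, 0.142 and 0.106% of kept cells.

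**Figure D3:**
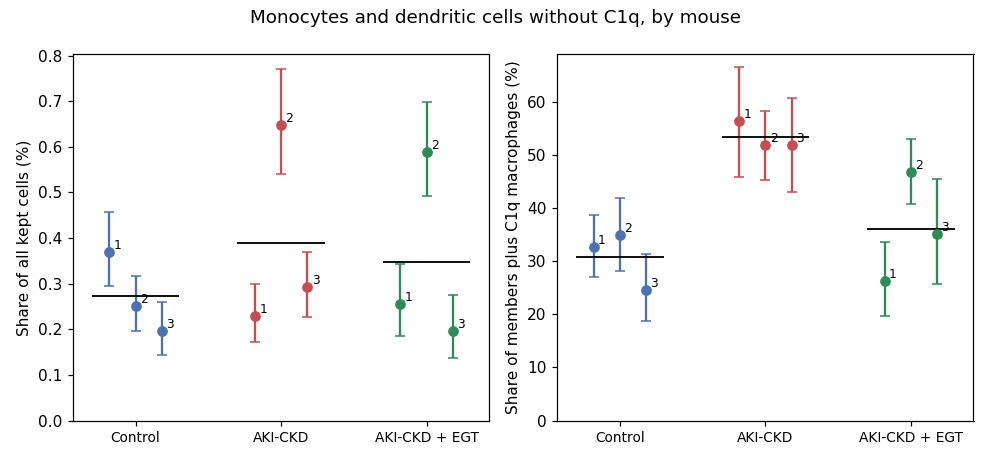
Share of the selected cells in each mouse (points, numbered by replicate) among all kept cells (left, percent) and among selected cells plus C1q macrophages (right, percent), with 95% exact binomial intervals as bars and group means as black lines. On the right the AKI-CKD mice sit at 51.9 to 56.4%, above the 24.6 to 34.8% of Control and the 26.2 to 46.9% of AKI-CKD + EGT.

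Within the selected cells, cluster shares mostly overlapped. Ly6c-high monocyte-like cells were 18.8, 8.70 and 6.25% of a Control mouse's cells, 13.2, 28 and 17.6% in AKI-CKD, and 13.6, 23.4 and 0% in AKI-CKD + EGT. The exact permutation p was 0.3 and 0.5. Leaving out 1 mouse, with the clusters kept, moved the differences of 8.36 and -7.26 points to between 4.17 (without AKI-CKD 2) and 12.1 and between -12.8 and -1.08 (without AKI-CKD + EGT 3). Averages of the cDC2-like share were 25.1 ± 10.8% (SD, n = 3) for Control, 34.3 ± 12.4% for AKI-CKD and 29.2 ± 7.06% with EGT added, with exact p = 0.3 and 0.6. Leaving out 1 mouse, with the clusters kept, moved the differences of 9.23 and -5.10 points to between 3.73 and 16.0 and between -11.8 and 0.397, where the last, of opposite sign, was without AKI-CKD 1. With finer clusters, at resolution 1.0, the first difference had the opposite sign, -1.97 points, and the second was -1.65.

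The rarer classes were few enough that single cells moved their shares. Plasmacytoid dendritic cell-like cells numbered 1, 4 and 4 in Control, 1, 0 and 0 in AKI-CKD, and 1, 2 and 2 in AKI-CKD + EGT (exact p = 0.2 for both comparisons). Neutrophil-like cells numbered 12, 6 and 1 in Control, 1, 1 and 6 in AKI-CKD, and 2, 12 and 3 in AKI-CKD + EGT (exact p = 0.3 for both). Endothelial-led cells numbered 1, 1 and 2 in Control, 5, 17 and 2 in AKI-CKD, and 6, 2 and 2 in AKI-CKD + EGT (exact p = 0.2 and 0.8). Ly6c-low monocyte-like and cDC1-like shares overlapped as well.

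The tubule-led cluster did not overlap. It made up 34.1, 23.2 and 18.8% of the selected cells in Control, 11.3, 14.4 and 11.8% in AKI-CKD, and 15.9, 18 and 29.4% in AKI-CKD + EGT. The AKI-CKD mice were the lowest (exact p = 0.1 in both comparisons, adjusted 0.5). With finer clusters, at resolution 1.0, the corresponding differences had the opposite sign, 2.11 and -2.27 percentage points in place of -12.9 and 8.60. Leaving out 1 mouse, with the clusters kept, gave -16.2 to -8.47 and 4.44 to 11.2. When the clusters were also made again, the first difference was -0.712 without Control 1 and the second 2.65 without AKI-CKD + EGT 3.

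The second comparison asked which genes differed inside these cells between AKI-CKD and Control. UMIs were summed over the selected cells of each mouse and 3778 genes with sufficient counts were fitted over all 9 mice with edgeR's quasi-likelihood test. Every adjusted p of a gene below comes from this test with Benjamini-Hochberg adjustment. At an adjusted p below 0.05, 0 genes or 0% passed, and 289 genes had an unadjusted p under 0.05. DESeq2 on the same sums called 2 genes, Esrrg and Malat1, both lower in AKI-CKD. Groups did not overlap for 5.06% of the tested genes with AKI-CKD higher and for 6.83% with AKI-CKD lower; these percentages are the background for every count of non-overlapping genes in this comparison. The outcome depended on Control 3: without it 14 genes passed. Among them Crip2, Epas1, Ly6c1, Podxl and Sparc were higher and Aqp2, Esrrg, Mtss1 and Retnlg lower in AKI-CKD. Crip2, Epas1, Ly6c1, Podxl, Sparc and Mtss1 are named after their values were seen. Retnlg was a leading gene of the neutrophil-like cluster. For the other genes named here, the clusters that gave the UMIs are given below for Esrrg alone. Without AKI-CKD 1 a single gene passed, Ly6d. With no filter on low counts 103 of 17955 genes passed, 68 higher and 35 lower in AKI-CKD. Cdkn1a was among the higher, and Ly6d and S100a8 among the lower. The plasmacytoid dendritic cell-like cluster gave 95.3% of the Ly6d UMIs, and the neutrophil-like cluster 97.2% of those of S100a8. The mast cell genes Cpa3 (adjusted p = 0.000251) and Cma1 (0.0444), named after their values were seen, were also among the lower. Each had its UMIs in a single cell of Control 1. A pass in the unfiltered fit alone is therefore not taken as a finding here or below. In summed counts, fewer cells of a kind and less RNA per cell cannot be told apart.

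Among the genes with the smallest p and AKI-CKD higher were S100a16, Icam2, Ptprb, Eng and Col4a1, and none of these 5 passed (adjusted p = 0.244 for each). All 5 passed with no filter on low counts, S100a16 also without Control 3 (adjusted p = 0.0216) and Ptprb also without the 6% of cells with most UMIs (0.0182). Gene levels by mouse are CPM on library sizes scaled by TMM (trimmed mean of M-values), and folds are log2 values ± SE of the fit. Eng (endoglin, a TGF-beta co-receptor of endothelium) stood at 3.20, 3.91 and 17.0 CPM in Control and 56.8, 101 and 40.7 in AKI-CKD, a log2 fold change of 3.24 ± 0.80. Ptprb, the endothelial receptor phosphatase, stood at 0, 31.3 and 28.3 CPM against 65.5, 145 and 112 (2.59 ± 0.64). Icam2, an adhesion molecule of endothelium and leukocytes, stood at 19.2, 23.5 and 28.3 CPM against 83, 178 and 66.2 (2.27 ± 0.55).

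These genes came mainly from 38 cells. The endothelial-led cluster gave 98.4% of the Ptprb UMIs, 93.9% of Eng, 88.1% of Icam2, 75.8% of S100a16 (a calcium-binding protein) and 52.9% of Col4a1 (basement membrane collagen). In a fit restricted to the monocyte-like and dendritic cell-like clusters, none of the 5 had sufficient counts to be tested. The endothelial or stromal marker list moved with them: 6 of its 8 genes had a UMI, Col1a1 and Col3a1 had 0, and its summed level was 55.4 to 250 CPM in Control, 127 to 507 in AKI-CKD and 83.7 to 432 in AKI-CKD + EGT. The part of these 38 cells in each difference was not tested beyond this.

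On the other side stood Esrrg, Gab2, Cyp2d12, Neat1, Magi2 and Malat1. Esrrg (estrogen-related receptor gamma, a metabolic nuclear receptor) had the smallest adjusted p, 0.0895, with 192, 82.1 and 90.6 CPM in Control and 26.2, 22.2 and 22.9 in AKI-CKD (log2 fold change -2.39 ± 0.41). The 3 AKI-CKD values were close together and below every Control value. Malat1, an abundant nuclear long noncoding RNA, stood at 10285, 6740 and 6297 CPM against 3651, 2366 and 1018 (-1.73 ± 0.41, adjusted p = 0.244). Neat1, the RNA scaffold of paraspeckles, stood at 713, 285 and 362 CPM against 179, 150 and 91.7 (-1.72 ± 0.40, adjusted p = 0.244). With no filter on low counts Esrrg (adjusted p = 2.33e-05), Malat1 (3.53e-06), Neat1 (5.2e-05), Magi2 (0.000132) and Cyp2d12 (0.0338) passed, and Gab2 did not.

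Most of these UMIs, Gab2 and Neat1 aside, came from the tubule-led cluster, and the same sign was seen in other cells. The tubule-led cluster gave 67.3% of the Esrrg and Magi2 UMIs, 57.0% of Malat1, 55.1% of Cyp2d12 and 46.7% of Neat1. In tubule reference cells the pooled Control and AKI-CKD levels were 181 and 101 CPM for Esrrg, 9215 and 5866 for Malat1 and 485 and 248 for Neat1. In C1q macrophages the log2 fold changes were -1.51 for Esrrg, -1.31 for Malat1 and -1.91 for Neat1. In the monocyte-like and dendritic cell-like clusters alone Malat1 was at -1.34 and Neat1 at -0.91, and Esrrg had too few counts. The tubule-led share of cells, lower in AKI-CKD, moved with all of them, and its part was not tested.

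Gab2 differed from these in its source. It encodes a scaffold that couples cytokine and Fc receptors to PI3 kinase, and 78.5% of its UMIs came from monocyte-like and dendritic cell-like clusters, with the highest level, 175 CPM, in Ly6c-low monocyte-like cells. It stood at 89.5, 89.9 and 68.0 CPM in Control, 21.8, 29.1 and 28.0 in AKI-CKD, and 44.3, 77.6 and 54.5 in AKI-CKD + EGT. The AKI-CKD mice lay below all the others. The log2 fold change was -1.62 ± 0.36 against Control (adjusted p = 0.244) and -1.59 in the monocyte-like and dendritic cell-like clusters alone. In C1q macrophages it was -0.67, and pooled tubule reference levels of Gab2 were 12.7 CPM in Control and 8.58 in AKI-CKD. The selected cells held 28, 23 and 12 Gab2 UMIs in Control and 5, 17 and 11 in AKI-CKD.

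**Figure D4:**
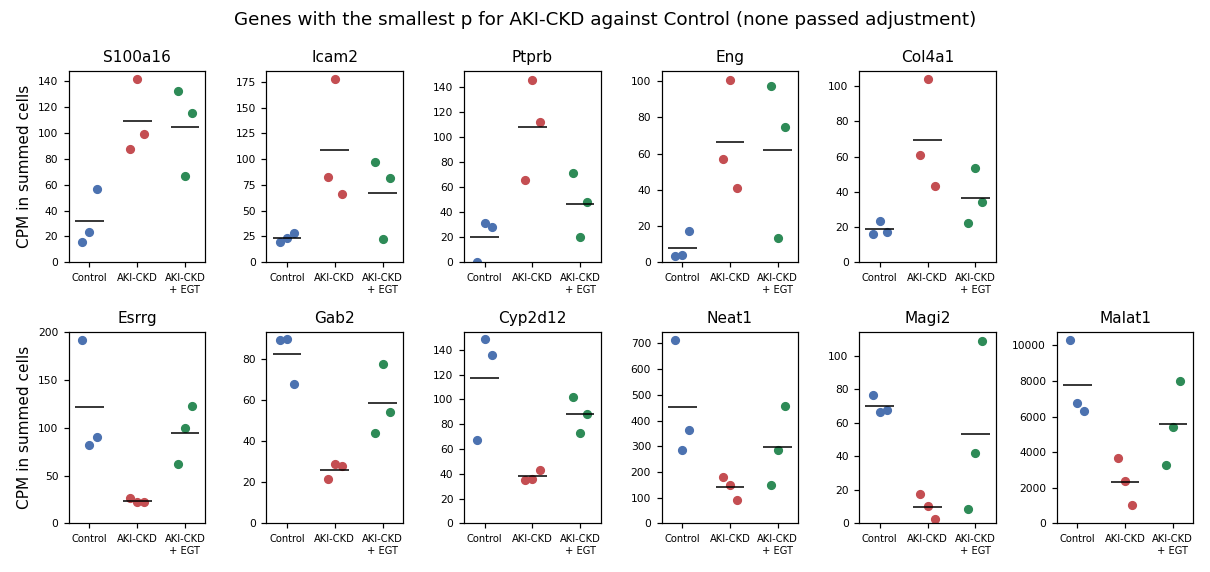
CPM of 11 genes in the summed selected cells of each mouse (points), grouped by condition with the group mean as a black line; each panel has its own axis from 0. The upper 5 genes are higher and the lower 6 lower in AKI-CKD than in Control without overlap, Gab2 for instance at 21.8 to 29.1 CPM against 68.0 to 89.9, and none passed adjustment.

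The third comparison, AKI-CKD + EGT against AKI-CKD, gave 0 called genes (0% of 3778), 163 with an unadjusted p under 0.05, and 0 by DESeq2. The smallest adjusted p was 0.838. Groups did not overlap for 5.11% of the genes with AKI-CKD + EGT higher and for 4.55% with it lower. With no filter on low counts 24 of 17955 genes passed, 14 higher and 10 lower with EGT, and Malat1 was among the higher. This comparison shares the AKI-CKD mice with the previous one, so opposite signs in the pair are partly built in, and each is given with its own values.

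The genes with the smallest p and AKI-CKD + EGT higher were Esrrg, Exoc6, Snx29, Rabep1, Ghr and Ppp1r1a. Esrrg stood at 62.0, 99.8 and 123 CPM with EGT (log2 fold change 1.98 ± 0.42, adjusted p = 0.838). Ghr, the growth hormone receptor, stood at 48.0, 39.3 and 71.3 CPM in AKI-CKD and 119, 146 and 88.5 with EGT (1.21 ± 0.34, adjusted p = 0.911), and 55.2% of its UMIs came from the tubule-led cluster. Rabep1, an endosome fusion factor, stood at 17.5, 29.1 and 10.2 CPM against 70.8, 48.8 and 81.7 (1.68 ± 0.47, adjusted p = 0.911). Of these 6 genes, Rabep1 and Ppp1r1a, an inhibitor of protein phosphatase 1, had most of their UMIs, 60.8% and 60.6%, in the monocyte-like and dendritic cell-like clusters. Exoc6 (exocyst) and Snx29 (a sorting nexin) had 59.0% and 52.8% in the tubule-led cluster. With no filter on low counts only Esrrg (adjusted p = 0.0111) and Exoc6 (0.00167) of these 6 genes passed.

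Lower with EGT were Grik3, Hspa1a, Dnaja1, Ccl2, Gm14164 and Tnf. Ccl2, the chemokine that draws Ccr2-positive monocytes, stood at 51.2, 54.7 and 17.0 CPM in Control, 74.2, 53 and 56.0 in AKI-CKD, and 8.85, 26.6 and 0 with EGT, and 98.3% of its UMIs came from the monocyte-like and dendritic cell-like clusters. Its log2 fold change was -1.91 ± 0.58 (adjusted p = 0.989). Ccl2 had 17, 31 and 22 UMIs in AKI-CKD and 2, 12 and 0 with EGT. The Ly6c-high monocyte-like cluster gave 48.7% of its UMIs, and AKI-CKD + EGT 3 had 0 cells of that cluster. The part of cell numbers in the Ccl2 difference was not tested. Tnf, the inflammatory cytokine, stood at 12.8, 43.0 and 96.3 CPM in Control, 39.3, 44.4 and 150 in AKI-CKD, and 0, 24.4 and 13.6 with EGT (-2.38 ± 0.77, adjusted p = 0.989), with 95% of UMIs from those clusters. With no filter on low counts Tnf passed (-2.49, adjusted p = 0.000999) and Ccl2 did not. For both, the EGT mice lay below the AKI-CKD mice and overlapped Control. The counts were small: in all 654 cells Ccl2 had a UMI in 6.57% and Tnf in 11.6%, against 0.0271% and 0.0601% of tubule reference cells.

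Hspa1a, an inducible Hsp70 whose sequence is nearly identical to Hspa1b so that reads may be split between them, stood at 253, 569 and 186 CPM in AKI-CKD and 119, 115 and 61.3 with EGT (-1.73 ± 0.47, adjusted p = 0.911). The 38 endothelial-led cells gave 46.2% of its UMIs, and the monocyte-like and dendritic cell-like clusters 42.8%. With no filter on low counts Hspa1a passed (-1.82, adjusted p = 4.39e-05). Its co-chaperone Dnaja1 stood at 454, 506 and 407 CPM against 279, 228 and 245 (-0.87 ± 0.24, adjusted p = 0.911). Grik3, a kainate receptor subunit, stood at 144, 205 and 206 CPM against 97.4, 95.3 and 95.4 (-0.96 ± 0.26, adjusted p = 0.911), and was lower in tubule reference cells too, at 316 CPM pooled over AKI-CKD and 167 with EGT. Hspa1a was likewise at 114 and 47.4 CPM in those reference cells.

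Gene groups are described by counts and medians beside the median over all 3778 genes, which was -0.01 for AKI-CKD against Control and 0.01 for AKI-CKD + EGT against AKI-CKD. No gene of any list passed in either comparison in the filtered fit of all 9 mice. Antigen presentation lay close to the background: 14 of 16 MHC class II genes were tested, with medians of 0.07 and -0.21, and 9 of 15 MHC class I genes, with 0.04 and -0.21. Cd74, the class II invariant chain, stood at 7464, 8414 and 16439 CPM in Control, 14441, 8748 and 10558 in AKI-CKD, and 9284, 6893 and 9236 with EGT, so the spread within Control was as wide as any difference between groups. B2m, the light chain of class I, had log2 fold changes of 0.42 ± 0.30 and -0.21 ± 0.29.

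Lysosome and phagocytosis genes, 24 of 27 tested, had medians of -0.01 and -0.02. Ctsz (cathepsin Z) stood at 406, 407 and 391 CPM in Control and 555, 634 and 667 in AKI-CKD without overlap (0.63 ± 0.22, adjusted p = 0.464). The 16 tested genes of the Nrf2 and redox list had medians of 0.00 and -0.05, and the 3 iron handling genes 0.07 and -0.18. Of the ergothioneine and cation transport list only Slc22a5 and Slc31a1 had sufficient counts, with medians of -0.30 and -0.04. The 5 tested p53 targets had medians of 0.19 and -0.24. Cdkn1a, the p21 cell cycle inhibitor, stood at 281, 411 and 210 CPM in Control, 288, 868 and 629 in AKI-CKD, and 274, 443 and 313 with EGT (0.99 ± 0.35, adjusted p = 0.464, and -0.79 ± 0.35, adjusted p = 0.998). The 38 endothelial-led cells gave 32.3% of its UMIs, and in the monocyte-like and dendritic cell-like clusters its log2 fold changes were 0.32 and -0.34.

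Inflammatory genes gave 0 calls in the filtered fit of all 9 mice. The chemokine and receptor list, 9 of 22 tested, had a median of 0.35 in AKI-CKD and -0.97 with EGT, and -0.89 in the monocyte-like and dendritic cell-like clusters. With EGT, 6 of the 9 were negative and 1, Ccl2, did not overlap, against 4.55% of all genes. Cxcl2, a neutrophil chemoattractant, stood at 61.1, 154 and 807 CPM in AKI-CKD and 39.8, 208 and 27.2 with EGT, so AKI-CKD 3 set most of that difference. With no filter on low counts Cxcl2 passed with EGT (log2 fold change -1.83, adjusted p = 2.8e-05). Of the 12 tested genes for cytokines and NF-kB, with medians of -0.14 and -0.26, 7 were negative in AKI-CKD and 3 (Nfkb1, Tlr2 and Il17ra, named after their values were seen) lay below Control without overlap, or 25% against 6.83% of all genes. The 2 members with the most UMIs had the other sign, with log2 fold changes of 0.65 ± 0.41 for Il1b and 0.73 ± 0.32 for Nfkbia, the NF-kB inhibitor. Il1b stood at 900, 1928 and 3114 CPM in AKI-CKD and 655, 1352 and 1607 with EGT, and Nfkbia at 611, 1111 and 1734 against 566, 776 and 497. The 10 tested matrix and repair genes had medians of 0.25 and -0.29, among them Vim (vimentin) at 0.50 ± 0.26 and -0.44 ± 0.26, or 0.18 and -0.32 in the monocyte-like and dendritic cell-like clusters.

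Of the immediate early and heat shock list, 21 of 22 genes were tested and 20 were negative with EGT, with a median of -0.34. The 4 without overlap were Hspa1a, Hspa8, Hsp90aa1 and Dnaja1, all chaperones, and Hsp90aa1 is named after its values were seen. Over all genes 4.55% were lower with EGT without overlap. Hsp90aa1 stood at 546, 682 and 565 CPM in AKI-CKD and 381, 379 and 497 with EGT. Hspa8 stood at 2384, 2919 and 2587 CPM in AKI-CKD and 2173, 1632 and 1519 with EGT. In the monocyte-like and dendritic cell-like clusters the list's median was -0.04, while Hspa1a was at -1.48, Dnaja1 at -0.89, Hsp90aa1 at -0.71 and Hspa8 at -0.50. In the endothelial-led cluster its summed level was 32837 CPM, against 7381 to 14736 CPM in the other clusters.

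Myeloid transcription factors were tested for 16 of 20 genes, and 15 were negative in AKI-CKD, with a median of -0.43. Groups did not overlap for 4, or 25% of the list, against 6.83% of all genes; these were Zeb2, Runx1, Stat3 and Bhlhe40, named after their values were seen. Runx1, a regulator of myeloid differentiation, stood at 138, 129 and 68.0 CPM in Control, 52.4, 49.6 and 50.9 in AKI-CKD, and 48.7, 82.0 and 40.9 with EGT (-1.16 ± 0.34, adjusted p = 0.324). Zeb2 stood at 154, 297 and 142 CPM against 109, 121 and 117 (-0.77 ± 0.31, adjusted p = 0.522). The list's median was -0.68 in the monocyte-like and dendritic cell-like clusters and -0.34 in C1q macrophages. With EGT against AKI-CKD it was 0.07. Hmgb2, a chromatin protein of dividing cells, stood at 505, 411 and 430 CPM in Control, 183, 205 and 227 in AKI-CKD, and 204, 215 and 68.1 with EGT (-1.13 ± 0.30, adjusted p = 0.254, and -0.28 ± 0.31), so its level with EGT stayed near that of AKI-CKD. Only 3 of 18 cell cycle genes could be tested.

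Gene levels of the cell type lists did not all have the sign of the matching cluster share. The 5 tested neutrophil genes had medians of -1.03 and 0.89, with S100a8 at 1935, 1110 and 408 CPM in Control, 323, 142 and 1011 in AKI-CKD, and 766, 701 and 1253 with EGT. The 5 plasmacytoid dendritic cell genes had medians of -1.17 and 1.63, with Ly6d at 28.8, 156 and 260 CPM in Control, 48.0, 0 and 0 in AKI-CKD, and 57.5, 35.5 and 88.5 with EGT (adjusted p = 0.244 against Control). The cDC1 genes had medians of -0.71 and 0.78, the Ly6c-high genes -0.31 and 0.29, the Ly6c-low genes -0.58 and 0.43, and the cDC2 genes -0.13 and -0.06. Irf8 stood at 86.3, 207 and 368 CPM in Control, 131, 113 and 71.3 in AKI-CKD, and 283, 215 and 177 with EGT (-1.04 ± 0.41, adjusted p = 0.51, and 1.12 ± 0.40, adjusted p = 0.998).

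Mitochondrially encoded genes had a single sign in each comparison. All 11 tested were negative in AKI-CKD against Control (median -0.86) and positive with EGT (median 1.11), and 5 of 11 did not overlap in the latter, against 5.11% of all genes. With no filter on low counts mt-Cytb (adjusted p = 0.0233), mt-Nd4 (0.0416) and mt-Nd5 (0.0146), named after their values were seen, passed with EGT. mt-Co1, a subunit of complex IV, stood at 11925, 5833 and 3720 CPM in Control, 4314, 4721 and 3147 in AKI-CKD, and 5611, 8667 and 12382 with EGT (-0.82 ± 0.38, adjusted p = 0.638, and 1.13 ± 0.38, adjusted p = 0.989). The Control values spread more widely than the AKI-CKD values. The medians were -0.63 and 0.95 in C1q macrophages, and the mitochondrial share of all kept cells, given above, was lowest on average in AKI-CKD as well. The median mitochondrial share of the selected cells was 5.79, 3.92 and 1.45% in Control, 1.80, 1.5 and 1.36% in AKI-CKD, and 1.96, 4.86 and 5.61% with EGT. The part of this library-wide difference in the myeloid values was not tested. The rule's limit of 15% uses the same genes, so their p-values and lack of overlap are a description and not a result. The 3 limits for kept cells left 17255 of 23876 barcodes in AKI-CKD + EGT 3 and 24534 of 24890 in Control 3.

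**Figure D5:**
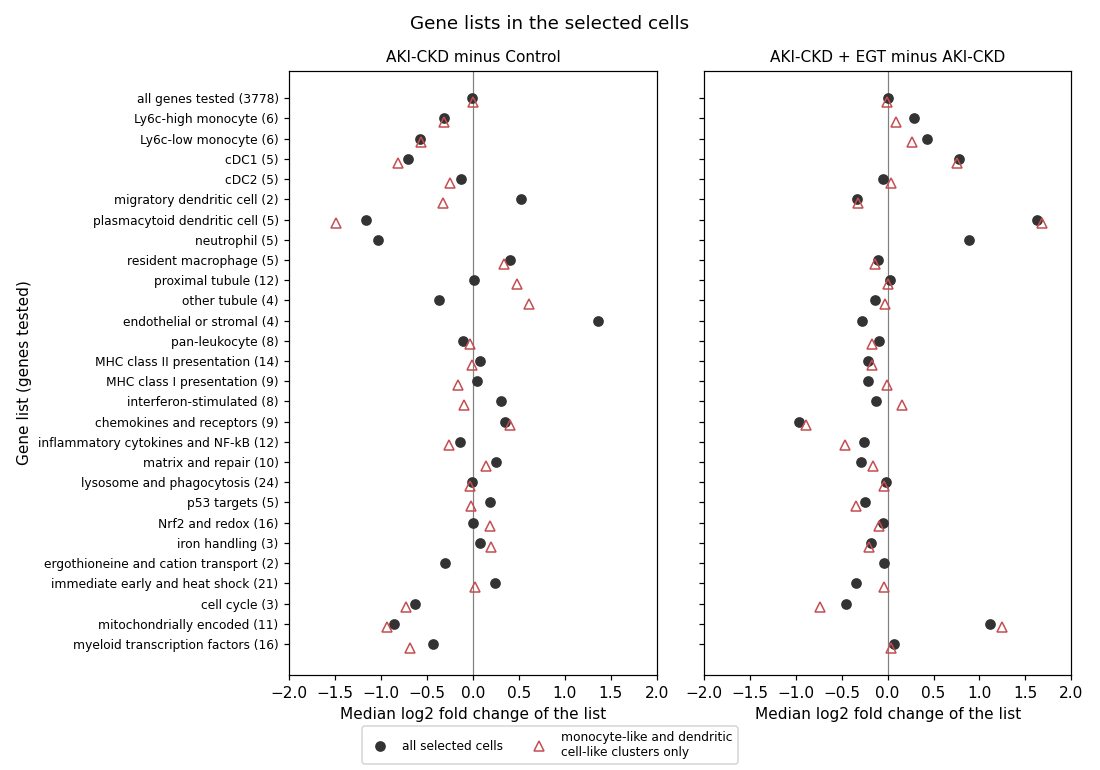
Median log2 fold change of each gene list (rows, number of genes tested in brackets) in the selected cells (filled circles) and in the monocyte-like and dendritic cell-like clusters alone (open triangles), for AKI-CKD minus Control (left) and AKI-CKD + EGT minus AKI-CKD (right). Mitochondrially encoded genes sit at -0.86 and 1.11, chemokines and receptors at 0.35 and -0.97, and all genes tested at -0.01 and 0.01.

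The last comparison asked whether the treatments moved these cells and C1q macrophages differently. An interaction fit over the 18 sums (both cell sets of each mouse, with the mouse as a block) tested 5603 genes and called 0% for AKI-CKD against Control and 0% for AKI-CKD + EGT against AKI-CKD; 255 and 246 genes had an unadjusted p under 0.05. The counts stayed at 0 with RLE size factors, and leaving out 1 mouse gave at most 2 and 3 genes. Ear2, an eosinophil-type ribonuclease that is one of several near-identical paralogs, had the smallest adjusted p, 0.0697. In plain CPM it stood at 26.1, 131 and 43.5 in the Control selected cells and 38.3, 40.6 and 59.6 in AKI-CKD, and in macrophages at 0, 0 and 0 in Control and 18.4, 52.0 and 17.3 in AKI-CKD. It passed when AKI-CKD 3, AKI-CKD + EGT 1 (together with Gm56663) or AKI-CKD + EGT 2 was left out. S100a6, a calcium-binding protein, stood at 1098, 1110 and 1847 CPM in the Control selected cells and 9.85, 18.9 and 71.5 in Control macrophages, and at 1661, 2491 and 1205 against 27.6, 297 and 166 in AKI-CKD (interaction log2 fold change -2.20 ± 0.46, adjusted p = 0.123). It passed without Control 3 or without AKI-CKD 1. For AKI-CKD + EGT against AKI-CKD the smallest adjusted p was 0.0952, for Calb1, a calcium buffer of distal tubule (interaction log2 fold change 2.65 ± 0.50). Calb1 stood at 4.26, 32.1 and 7.77 CPM in the AKI-CKD selected cells and 22.3, 67.9 and 178 with EGT, and at 9.19, 258 and 17.3 against 34.2, 63.3 and 164 in macrophages. The genes that passed were Calb1, Ear2 and Ttr without AKI-CKD 3, Calb1, Ear2 and Hspa1a without AKI-CKD + EGT 1, and Gm2245 without AKI-CKD + EGT 2, of which Gm2245 is named after its values were seen.

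Isg15, an interferon-stimulated ubiquitin-like protein, was the single gene called in C1q macrophages in each comparison (log2 fold change 2.42, adjusted p = 0.00238, and -2.16, adjusted p = 0.0142, edgeR). In the selected cells it stood at 121, 170 and 81.5 CPM in Control, 111, 389 and 409 in AKI-CKD, and 107, 124 and 102 with EGT, in plain CPM. AKI-CKD 2 and 3 were high and AKI-CKD 1 lay within the Control range. The log2 fold changes were 1.30 ± 0.38 (adjusted p = 0.324) and -1.47 ± 0.39 (adjusted p = 0.911), and in the monocyte-like and dendritic cell-like clusters 1.34 and -1.58. With no filter on low counts Isg15 passed in both comparisons (1.44, adjusted p = 0.00179, and -1.59, adjusted p = 0.000999). The difference from macrophages was not called (interaction -1.02 ± 0.40, adjusted p = 0.944, and 0.62 ± 0.41, adjusted p = 0.987). The interferon-stimulated list as a whole, 8 of 30 genes tested, had medians of 0.31 and -0.13, and of -0.09 and 0.16 in the monocyte-like and dendritic cell-like clusters.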

How the data were processed

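Kidney single-cell libraries of 9 mice were used, 3 each of Control, AKI-CKD and AKI-CKD + EGT. For each mouse the authors deposited a gene by cell matrix of UMI counts, not normalized, made with PISA 1.0 per the file headers; the submitters' processing notes name the GRCm39 build. Whether doublets were removed before deposit is not given in the sources used here, and no doublet caller was run. The cells were selected as described at the start, and the selection and gene lists were chosen with earlier results of these data known.

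UMIs were summed per mouse. Genes passing filterByExpr were tested with edgeR 4.0.16 (TMM scaling, quasi-likelihood, all 9 mice, Benjamini-Hochberg adjustment); DESeq2 1.42.0 was an alternative. The same sums of C1q macrophages entered an interaction fit. Shares were compared by exact 2-sided permutation over mice. Cells were clustered with scanpy 1.11.5 (2000 variable genes, 20 components, 15 neighbours, Leiden resolution 0.6); the tie of the cDC2-like cluster was broken by its top 10 genes, and cell cycle genes were dropped from the naming lists after clusters were seen. CPM by mouse in the 2 group comparisons use TMM-scaled library sizes, and CPM of clusters, C1q macrophages and the interaction are unscaled. Scripts were tested on simulated data with 200 planted changes per comparison, split evenly between log2 sizes of 1 and 2. For AKI-CKD against Control 11 of size 1 and 83 of size 2 were recovered, with 5 false calls. For AKI-CKD + EGT against AKI-CKD these numbers were 26, 80 and 11. Named genes were the 6 each way with the smallest p among genes whose groups do not overlap and whose log2 CPM averages 5 or more, up to 4 per list with the highest average level, 15 genes of highest ratio to other kept cells, and 5 each way for the interaction. Of the genes chosen in this way the text gives a part, and 1 that would stand among the 6 is left out. Others are marked as chosen after their values were seen. The labels give a tissue, a group and a number for each sample, and the study states 3 biological replicates per group. Gene p-values set a difference against the spread within groups estimated over all 9 mice. Share p-values come from permuting group labels over 3 mice against 3.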

Additional observations from a re-analysis of the deposited data

How the results depend on the processing

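The C1q-poor share was taken of selected cells plus C1q macrophages. Its difference kept its direction, without overlap of groups, under a higher marker minimum, no C1q UMI allowed, thinning to 1000 UMIs, no mitochondrial limit and each mouse left out. It ran from 18.6 to 24.7 percentage points for AKI-CKD against Control and from -22.8 to -12.4 for AKI-CKD + EGT against AKI-CKD. The share of kept cells did not keep its direction. Leaving out 1 mouse gave -0.0118 to 0.198 and -0.163 to 0.0867 percentage points, and thinning turned the second difference to 0.0417. For cluster shares of selected cells, 1 mouse was left out both with the clusters made again and, added after the data were seen, with the clusters of all mice kept. Over both, the differences in AKI-CKD and with EGT turned for Ly6c-low monocyte-like cells (-5.82 to 3.06 and -4.60 to 3.59 points) and cDC1-like cells (-1.83 to 2.20 and -2.74 to 1.86), and with EGT for endothelial-led cells (-4.94 to 1.10) and cDC2-like cells (-12.8 to 0.397, the sign turning only with the clusters kept). The direction but not the size was kept for cDC2-like cells in AKI-CKD (2.82 to 17.4), endothelial-led cells in AKI-CKD (3.92 to 9.25), Ly6c-high monocyte-like cells (1.06 to 12.1 and -12.8 to -0.603), plasmacytoid dendritic cell-like cells (-6.44 to -2.86 and 1.29 to 3.45), neutrophil-like cells (-7.57 to -1.55 and 2.23 to 6.24) and tubule-led cells (-16.2 to -0.712 and 2.65 to 11.2). Clusters made again gave no tubule-led value without Control 3 for AKI-CKD against Control, or without AKI-CKD 1 for either difference. At clustering resolution 1.0 the cDC2-like difference in AKI-CKD was -1.97 points and the tubule-led differences were 2.11 and -2.27; the cause was not tested. The count of genes called in AKI-CKD against Control was 103 with no filter on low counts, 2 with DESeq2, 1 (Ptprb) without the 6% of cells with most UMIs, and 0 to 14 with 1 mouse left out. For AKI-CKD + EGT against AKI-CKD it was 24 with no filter and 0 otherwise, 0 to 0 with 1 mouse left out. The interaction gave 0 to 2 and 0 to 3 genes with 1 mouse left out. With the replicate block 0 and 0 genes were called (240 and 124 at an unadjusted p under 0.05). Deviations of same-numbered mice correlated at -0.294 to 0.110 over 9 pairs and those of other pairs at -0.217 to 0.322, so the numbers were not taken to pair mice. Depth limits genes of few UMIs: AKI-CKD + EGT 3 had 34 cells.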

Other observations

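The following genes were chosen after their values were seen, and the values in this paragraph were not tested. In the edgeR fit with no filter on low counts, Ccl22 passed in AKI-CKD against Control (adjusted p = 5.68e-14) and with EGT (1.98e-09). Cpa3 (0.000251), Cma1 (0.0444) and Cdkn1a (0.0194) passed in AKI-CKD against Control, and Spib (0.0113) with EGT. Ccl22, a chemokine of mature dendritic cells, had 146 UMIs in 1 cDC2-like cell of AKI-CKD 2 and 0 to 6 UMIs in each other mouse. The mast cell genes Cpa3 and Cma1 had 25 and 14 UMIs, each in 1 cell of Control 1 within the tubule-led cluster. Slc22a4, which encodes the ergothioneine transporter, had a UMI in 2.75% of the selected cells against 8.45% of tubule reference cells. Spib, a transcription factor of plasmacytoid dendritic cells, had a UMI in 46.7% of the plasmacytoid dendritic cell-like cells and 0.0627% of tubule reference cells. Cdkn1a had a UMI in 92.1% of endothelial-led, 67% of Ly6c-high and 57.9% of Ly6c-low monocyte-like and 13% of cDC1-like cells, against 8.10% of tubule reference cells.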
